A study of Macaca mulatta with 6 samples.

Results

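CYP17A1, CYP19A1, HSD17B1 and HSD11B1 encode enzymes that make androgens, estrogens and active glucocorticoid. They were taken as every probe set of the value table that carries one of the 4 gene symbols, 4 of the 14132 genes named on the array. They have 5 of the 52766 probe sets tested, 2 for CYP17A1 and 1 for each of the others. The cells came from rhesus macaque corpora lutea 12 days after the surge of luteinizing hormone and were dispersed and cultured in serum-free medium on fibronectin for 24 h. During these 24 h, 3 cultures received 1 µM T0901317, a compound that activates LXRs (liver X receptors, the nuclear receptors for oxidised cholesterol), and 3 received the vehicle, 0.1% dimethyl sulfoxide (DMSO). The replicates are numbered 1 to 3 in both groups and the design calls them paired. Whether 1 animal supplied both cultures of a pair is not given in the labels, and they describe no purification of a cell type.

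The corpus luteum makes progesterone from cholesterol, and in primates it also secretes androgens and estrogens. CYP17A1 is the cytochrome P450 that hydroxylates progestins and then cleaves their side chain to give androgens, with electrons from POR and with cytochrome b5 (CYB5A) favouring the cleavage. CYP19A1, or aromatase, turns androgens into estrogens, and HSD17B1 reduces estrone to the more potent estradiol. HSD11B1 belongs to the same short-chain dehydrogenase family as HSD17B1 and reduces inactive cortisone to cortisol in the endoplasmic reticulum, with NADPH from H6PD. In human ovary, CYP17A1 is known as a theca cell enzyme and CYP19A1 as a granulosa cell enzyme.

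Levels are log2 values from RMA, which corrects background, scales arrays and summarises the probes of a probe set; a difference of 1 is a doubling. The arrays had median levels of 5.54 to 5.71. The dim reference, used to judge whether a level is low, was 4.63 (the 95th percentile of the mean levels of 42 Bacillus control probe sets). Of the luteal markers, STAR lay between 10.5 and 11.5 and the ferredoxin FDX1 between 11.0 and 11.5 on the 6 arrays. Means above the dim reference were found for 8 of 9 measured luteal markers, the exception being OXTR. As 12264 of all 14132 named genes also had such means, this count does not set the luteal markers apart. The LXR target MYLIP, a ubiquitin ligase, had 9.99, 10.05 and 10.68 in T0901317 replicates 1, 2 and 3, against 7.50, 8.01 and 8.03 in DMSO replicates 1, 2 and 3. Its rise of 2.39 ± 0.11 passed the test (limma's SE, n = 3 pairs; limma adjusted p = 4.9e-06).

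None of the 4 genes passed the test of T0901317 against DMSO on any of their 5 probe sets, where 0.0853% of all probe sets passed (45 of 52766; 0.0606% higher and 0.0246% lower; limma with the replicate as a block, adjusted p under 0.05). At an unadjusted p under 0.05 the members again gave 0, against 3.72% of all probe sets. The groups overlapped for every one of the 5, while 2.45% of all probe sets had no overlap. With this design a probe set had to differ by 0.53 (HSD11B1) to 0.90 (CYP19A1) on the log2 scale to pass, or 1.45-fold to 1.87-fold. The 95% intervals below give the range of changes that these arrays leave possible.

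**Figure D1:**
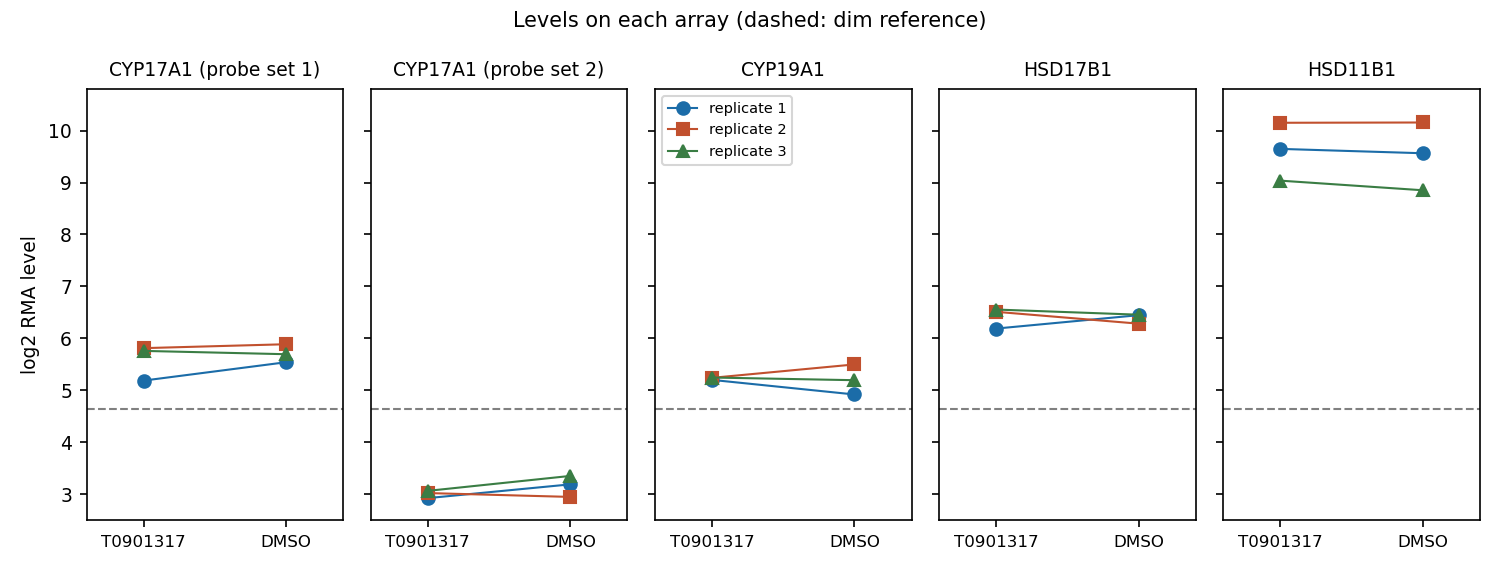
Log2 RMA level (vertical axis) of the 5 probe sets on each array, with T0901317 left and DMSO right in each panel; symbols are replicates, lines join the arrays of a pair, and the dashed line is the dim reference of 4.63. HSD11B1 lies well above the line, in the order replicate 2, 1, 3 in both groups, while the second CYP17A1 probe set lies below it on all 6 arrays.

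CYP17A1, the androgen-forming enzyme, had a brighter probe set near the median level of the arrays and another under the dim reference. Its brighter probe set (MmuSTS.4193.1.S1_at) had 5.19, 5.81 and 5.76 in T0901317 replicates 1, 2 and 3, and 5.54, 5.89 and 5.69 in DMSO replicates 1, 2 and 3. Replicate 1 was the lowest in both groups, and the groups overlapped. The means were 5.59 ± 0.35 with T0901317 and 5.71 ± 0.17 with DMSO (SD, n = 3 each), about 1 log2 unit above the dim reference. The difference was -0.12 ± 0.13 (limma's SE, n = 3 pairs; 0.92-fold, 95% interval 0.75 to 1.12; limma adjusted p = 1.00). It was below 0 in 2 of 3 pairs, with -0.35 in pair 1, -0.08 in pair 2 and 0.06 in pair 3.

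The other CYP17A1 probe set (MmugDNA.37726.1.S1_at) lay under the dim reference on all 6 arrays. It had 2.92, 3.02 and 3.06 in T0901317 replicates 1, 2 and 3, and 3.19, 2.95 and 3.35 in DMSO replicates 1, 2 and 3. Levels there cannot be told apart from background, and its difference of -0.16 ± 0.12 (limma adjusted p = 1.00) carries little information on CYP17A1.

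CYP19A1, the estrogen-forming enzyme, was close to the dim reference. Its 1 probe set (NCBI gene 678697) had 5.20, 5.24 and 5.25 in T0901317 replicates 1, 2 and 3, and 4.92, 5.50 and 5.19 in DMSO replicates 1, 2 and 3. The T0901317 arrays lay within the range of the DMSO arrays, with a range of 0.05 in T0901317 cultures and 0.58 in DMSO cultures. The means were 5.23 ± 0.02 with T0901317 and 5.20 ± 0.29 with DMSO (SD, n = 3 each). The difference of 0.02 ± 0.14 had a 95% interval of 0.82-fold to 1.26-fold (limma adjusted p = 1.00). Its sign depended on the setting, and it was -0.10 without replicate 1. The pairs went opposite ways, with 0.28 in pair 1, -0.26 in pair 2 and 0.05 in pair 3.

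HSD17B1, which makes estradiol, was above the dim reference on all 6 arrays by at least 1.5 log2 units. Its probe set (MmugDNA.19417.1.S1_at) had 6.19, 6.51 and 6.55 in T0901317 replicates 1, 2 and 3, and 6.45, 6.28 and 6.46 in DMSO replicates 1, 2 and 3. The groups overlapped, and T0901317 replicate 1 was the lowest array. The means were 6.42 ± 0.20 with T0901317 and 6.39 ± 0.10 with DMSO (SD, n = 3 each). The difference was 0.02 ± 0.13, with a 95% interval of 0.84-fold to 1.24-fold (limma adjusted p = 1.00). It was -0.26 in pair 1, 0.23 in pair 2 and 0.10 in pair 3, and the mean turned to -0.079 without replicate 2 and to -0.015 without replicate 3.

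HSD11B1, the cortisol-forming reductase, was the only one of the 4 genes with a level far above the dim reference, by 4.22 to 5.52 log2 units in the DMSO arrays. Its probe set (MmugDNA.31533.1.S1_at) had 9.65, 10.15 and 9.04 in T0901317 replicates 1, 2 and 3, and 9.56, 10.16 and 8.85 in DMSO replicates 1, 2 and 3. Replicate 2 was highest and replicate 3 lowest in both groups, and the groups overlapped almost wholly. The means were 9.61 ± 0.56 with T0901317 and 9.52 ± 0.65 with DMSO (SD, n = 3 each). The difference was 0.09 ± 0.08 (1.06-fold, 95% interval 0.94 to 1.21; limma adjusted p = 1.00), the narrowest interval of the 5. The pairs gave 0.08, -0.0054 and 0.19, so the pair differences had an SD of 0.10 where the DMSO arrays alone had an SD of 0.65.

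**Figure D2:**
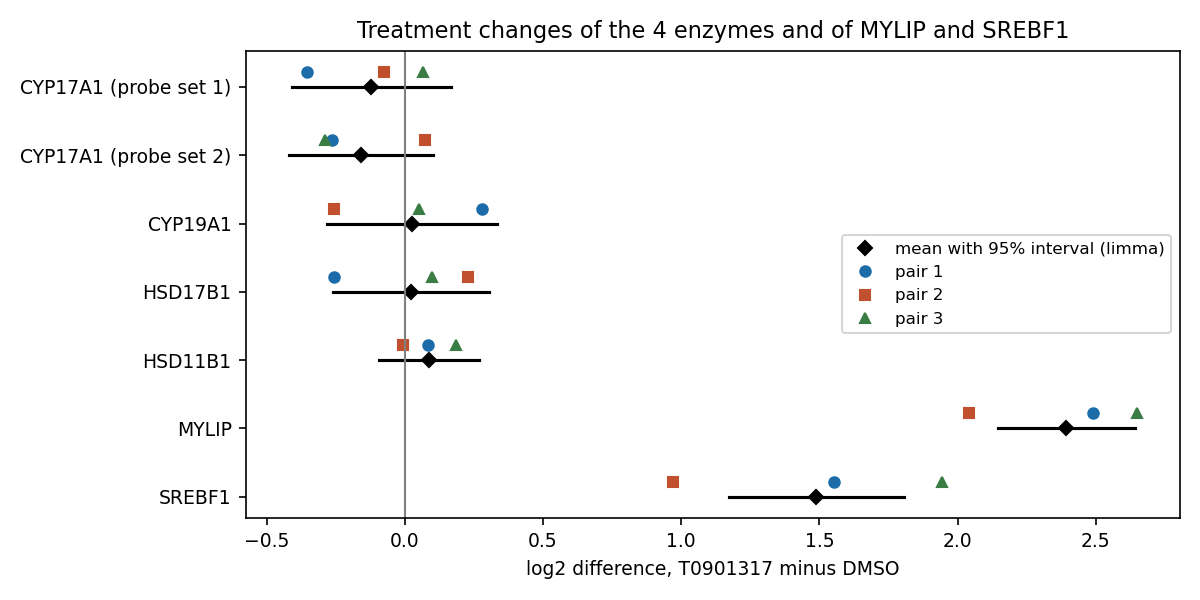
Log2 difference, T0901317 minus DMSO (horizontal axis), of the 5 probe sets and of the LXR targets MYLIP and SREBF1; coloured symbols are the 3 pairs, black diamonds the means and bars limma's 95% intervals. All 5 intervals of the steroid enzymes include 0, while MYLIP lies at 2.39 and SREBF1 at 1.49.

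For HSD11B1, cultures differed far more by replicate than by treatment. Its mean over both arrays of a replicate was 9.61 in replicate 1, 10.15 in replicate 2 and 8.94 in replicate 3, a 2.31-fold range. The replicate term passed limma's F test (adjusted p = 1.5e-05), a test added after the values were seen, but 40.2% of all probe sets passed it too. Only 2.41% of probe sets had a smaller p, and 7.14% had a larger SD over the DMSO arrays. Replicate number took up 98.6% of the sum of squares of HSD11B1 over the 6 arrays and treatment 0.781%. For the brighter CYP17A1 probe set the replicate term missed the threshold (adjusted p = 0.066 in limma's F test), as it did for CYP19A1 (adjusted p = 0.33) and HSD17B1 (adjusted p = 0.59).

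Other measures moved with HSD11B1 across replicates. STAR, the carrier of cholesterol into mitochondria, had 10.70, 11.45 and 10.58 in T0901317 replicates 1, 2 and 3, and 10.97, 11.48 and 10.54 in DMSO replicates 1, 2 and 3, also in the order 2, 1, 3. Of 9 measured fibroblast markers, 7 had that order in both groups (COL3A1, DCN, COL1A1, DPT, LUM, TCF21 and COL1A2, with TCF21 below the dim reference), where 12.0% of all named genes had it. The mean level of the 9 ran from 7.52 to 8.44 in T0901317 cultures and from 7.46 to 8.52 in DMSO cultures. Each gene was counted on its probe set of highest mean. The order also held on other probe sets of DCN, DPT and COL1A2. It did not hold on the other probe sets of LUM and COL1A1, nor on the dimmest of DCN. Of the other luteal markers measured, 0 of 8 had the order, as had 0 of 9 macrophage, 0 of 4 T and NK cell, 0 of 8 blood cell and 0 of 6 adrenal markers. The order was found in 3 of 10 endothelial and 1 of 4 pericyte markers. No marker of these lists passed the test of T0901317 against DMSO, where 0.177% of all named genes passed. The median difference was 0.21 for endothelial, -0.24 for pericyte, -0.16 for T and NK cell and -0.14 for blood cell markers. It was -0.10 for luteal, -0.06 for fibroblast, -0.02 for macrophage and 0.02 for adrenal markers, against -0.02 over all named genes. Whether cell makeup differed with treatment was not tested. The macrophage mean ran from 7.24 to 8.27 in T0901317 cultures and from 7.31 to 8.28 in DMSO cultures, and was lowest in replicate 1. In such mixed cultures, more cells of a type and more RNA per cell cannot be told apart.

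RNA quality differed between arrays, by replicate and within pairs. The difference between 3' and 5' control probe sets, averaged over actin, GAPDH and EF1a, was 1.03, 0.70 and 1.31 in T0901317 replicates 1, 2 and 3, and 0.85, 0.76 and 1.89 in DMSO replicates 1, 2 and 3, so it was lowest in replicate 2 and highest in replicate 3 of both groups. T0901317 minus DMSO, it was 0.18 in pair 1, -0.056 in pair 2 and -0.59 in pair 3. The test of T0901317 against DMSO called 246 probe sets when this difference was a covariate and 328 without replicate 3, in place of 45. None of the 4 enzymes was among them. Such refits leave hardly any arrays to estimate a probe set's own spread, so limma takes it mostly from all probe sets. The p-values and counts of fits with this covariate or without a replicate are therefore weak evidence, here and below. In refits added after the values were seen, the replicate term of HSD11B1 had an adjusted p of 2.6e-04 in limma with the covariate, and the means of replicates 1 and 2 differed by 0.55 (adjusted p = 4.1e-08 in limma). The parts of cell makeup and RNA quality in these differences were not tested.

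**Figure D3:**
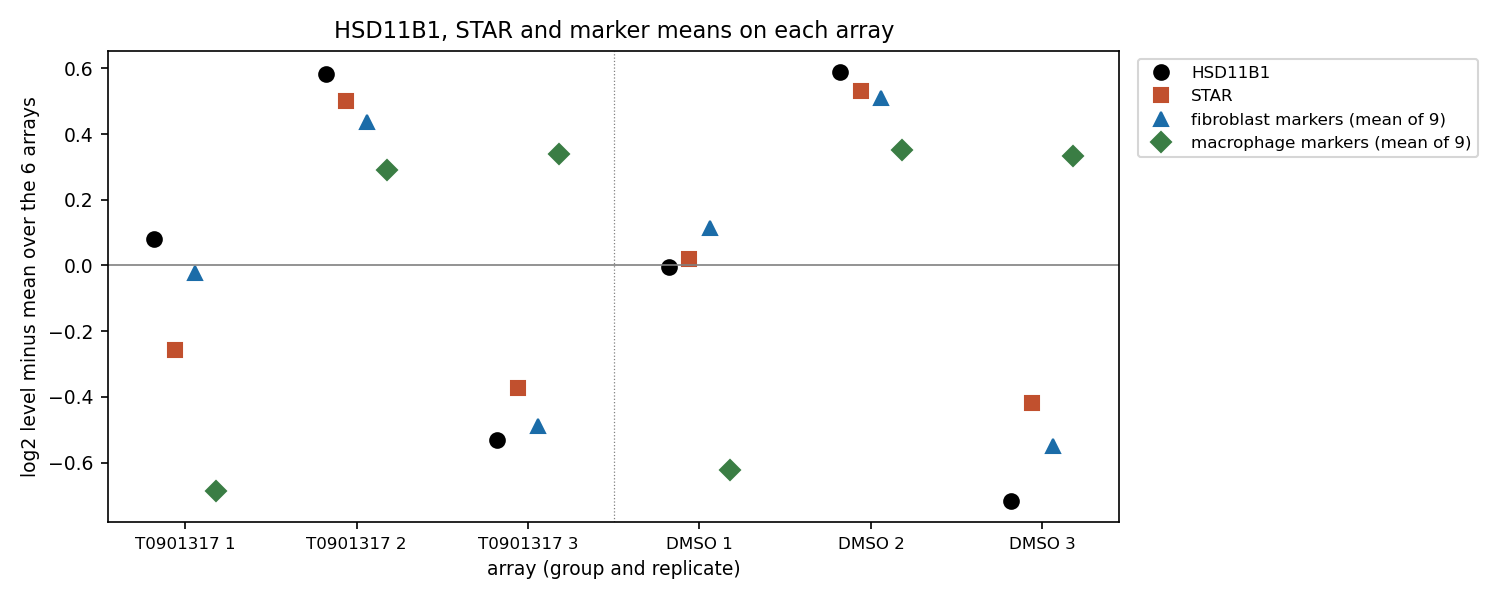
Log2 level minus its mean over the 6 arrays (vertical axis) on each array (horizontal axis, T0901317 left, DMSO right) for HSD11B1, STAR and the mean of 9 fibroblast and of 9 macrophage markers; 1 point is 1 array, with no error bars. HSD11B1, STAR and the fibroblast mean are highest in replicate 2 and lowest in replicate 3 of both groups, while the macrophage mean is lowest in replicate 1.

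The named genes most like each enzyme were ranked by the root mean square difference between profiles centred on their means over the 6 arrays, among 12263 genes above the dim reference. For HSD11B1, whose own profile had a root mean square of 0.50, they were GNG11 (0.042), a G protein subunit, CUL2 (0.058), a ubiquitin ligase scaffold, and TRAPPC1 (0.059), of vesicle transport. Of the 12263 genes, 1385 lay within 0.3 of HSD11B1. For the brighter CYP17A1 probe set they were H1-2, SLC15A3 and CRH (0.040 to 0.048), for CYP19A1 SSUH2, SRL and LOC696140 (0.035 to 0.057), and for HSD17B1 ZNF565, CCNL1 and GOLGA1 (0.029 to 0.057). CYP17A1, CYP19A1 and HSD17B1 had flat profiles, with root mean squares of 0.13 to 0.23 and 5700 to 7961 genes within 0.3. As 0.3 exceeds these root mean squares, a gene with no variation at all would be counted. These counts therefore do not show likeness.

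No measured gene of precursor supply and electron transfer passed (0 of 8 higher, 0 of 8 lower; 0.177% of named genes passed in either direction). The median difference was -0.08, against -0.02 over all named genes. CYP11A1 and HSD3B1 of this list were not among the measured genes. CYB5A, the partner of CYP17A1 in side chain cleavage, was at 10.42 ± 0.15 with T0901317 and 10.47 ± 0.13 with DMSO (SD, n = 3 each) and differed by -0.05 ± 0.07. POR, which passes electrons to CYP17A1 and CYP19A1, differed by -0.08 ± 0.10, and its other 3 probe sets by -0.09 to -0.02. HSD3B2, which converts pregnenolone to progesterone, had the largest difference (-0.18 ± 0.12). Next came CYB5B, the mitochondrial outer membrane cytochrome b5 (-0.12 ± 0.07, and -0.08 to 0.02 on its other probe sets). STAR had -0.09 ± 0.08, and 0.0075 without replicate 1 (limma adjusted p = 1.00 for each gene of the list).

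The other androgen and estrogen oxidoreductases gave 0 of 10 measured genes past the threshold, with a median of -0.05. HSD17B7, which acts in cholesterol synthesis and can also reduce estrone, had 10.10, 9.32 and 9.20 in T0901317 replicates 1, 2 and 3, and 10.66, 9.50 and 9.52 in DMSO replicates 1, 2 and 3. It was lower in 3 of 3 pairs, by -0.35 ± 0.09, but did not pass (limma adjusted p = 0.67). In limma it passed without replicate 3 (-0.37, adjusted p = 0.010) and with RNA quality as a covariate (-0.39, adjusted p = 0.019). The limit given above for such refits applies to HSD17B7 too. Its other probe sets had -0.30 and -0.39. SRD5A3, a steroid reductase family member that acts in dolichol synthesis, had -0.13 ± 0.11. HSD17B2, which oxidises estradiol back to estrone, was below the dim reference, with means of 4.10 with T0901317 and 4.05 with DMSO. SRD5A1, HSD17B12 and STS were not analysed here.

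For sulfation, desulfation and estrogen breakdown, 0 of 8 measured genes passed and the median was -0.01. CYP1B1, which hydroxylates estradiol to catechol estrogens, had 12.08, 12.07 and 11.80 in T0901317 replicates 1, 2 and 3, and 11.81, 11.65 and 11.43 in DMSO replicates 1, 2 and 3. Every pair was higher with T0901317, but the groups overlapped and the difference of 0.36 ± 0.06 did not pass (limma adjusted p = 0.10). Its other 2 probe sets had 0.32 ± 0.12 and 0.55 ± 0.14 (adjusted p = 1.00 and 0.65). In limma it passed without replicate 3 (0.35, adjusted p = 1.8e-05) and with RNA quality as a covariate (0.34, adjusted p = 0.0037). Both refits have the limit given above. UGT1A1, which glucuronidates estrogens, had 0.11 ± 0.14, and -0.051 without replicate 3.

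Genes around HSD11B1 gave no call. Of 10 measured genes of glucocorticoid supply and corticosteroid receptors, 0 passed, with a median of -0.02. H6PD, which supplies the NADPH that HSD11B1 uses, was at the dim reference, with means of 4.65 with T0901317 and 4.58 with DMSO, and differed by 0.07 ± 0.13. NR3C1, the glucocorticoid receptor, was at 8.30 with T0901317 and 8.34 with DMSO and differed by -0.04 ± 0.11, with 0.05 and 0.10 on its other probe sets and 0.030 without replicate 1. CYP11B1, the adrenal enzyme of cortisol synthesis, had the largest difference (0.13 ± 0.14, and -0.014 without replicate 1; limma adjusted p = 1.00 for each). HSD11B2, which runs the opposite reaction to HSD11B1, was not analysed here.

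Genes known to respond to glucocorticoids also gave no call (0 of 18 measured), with a median of -0.01. FKBP5, a cochaperone of the receptor, had means of 6.47 with T0901317 and 6.45 with DMSO and differed by 0.02 ± 0.12, with -0.036 without replicate 3. TSC22D3, or GILZ, differed by -0.07 ± 0.10. The largest differences were those of PDK4, a kinase that restrains pyruvate dehydrogenase (-0.29 ± 0.13, in 3 of 3 pairs), and MT1E, a metallothionein (0.16 ± 0.06, in 3 of 3 pairs; limma adjusted p = 1.00 for both). Without replicate 3, a refit with the limit given above, MT1E passed (0.20, limma adjusted p = 0.0095). Its probe set may detect more than 1 transcript, and metallothioneins are close copies of each other.

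Of 14 measured sex steroid receptors and responsive genes, 0 passed, with a median of -0.02. ESR1, or estrogen receptor alpha, was near the dim reference, at 4.71 with T0901317 and 4.72 with DMSO. ESR2, or estrogen receptor beta, was at 6.25 with T0901317 and 6.29 with DMSO. The largest differences were those of GPER1, a membrane estrogen receptor (0.15 ± 0.14), and PGR, the progesterone receptor (-0.13 ± 0.14), whose mean lay below the dim reference (limma adjusted p = 1.00 for all 4).

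Transcription factors and gonadotropin pathway genes known to regulate the 4 enzymes gave 0 of 22 measured genes past the threshold, with a median of -0.04. The gonadotropin receptors LHCGR and FSHR were not among the measured genes. NR5A1 (SF-1), an activator of CYP17A1 and CYP19A1 promoters, differed by -0.22 ± 0.14, with 0.05, -0.15 and -0.56 in pairs 1, 2 and 3. NR5A2 (LRH-1), which acts on the same sites, differed by 0.08 ± 0.17, with 0.34 without replicate 1 and -0.15 without replicate 3. NR4A2, an orphan receptor induced by gonadotropins, had the largest difference, -0.26 ± 0.11 in 3 of 3 pairs, with -0.26 to -0.12 on its other 4 probe sets (limma adjusted p = 1.00 for all 3 genes). Of 11 measured LXR targets, a list chosen with earlier results of these data known, 8 were higher and 0 lower. Besides MYLIP they included SREBF1 (1.49 ± 0.14), TMEM135 (1.35 ± 0.16), NR1H3 (1.24 ± 0.11), LPCAT3 (1.07 ± 0.09) and ACACA (0.84 ± 0.10). Their limma adjusted p ran from 5.1e-04 for LPCAT3 to 0.0087 for TMEM135. Other probe sets had 1.92 and 1.05 for MYLIP, 1.04 and 0.23 for SREBF1 and 0.18 for ACACA, and the 0.23 and 0.18 did not pass. The mean over the probe sets of ACACA gave 0.51 and did not pass (limma adjusted p = 0.22). Without the replicate block 0 of the 11 passed.

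**Figure D4:**
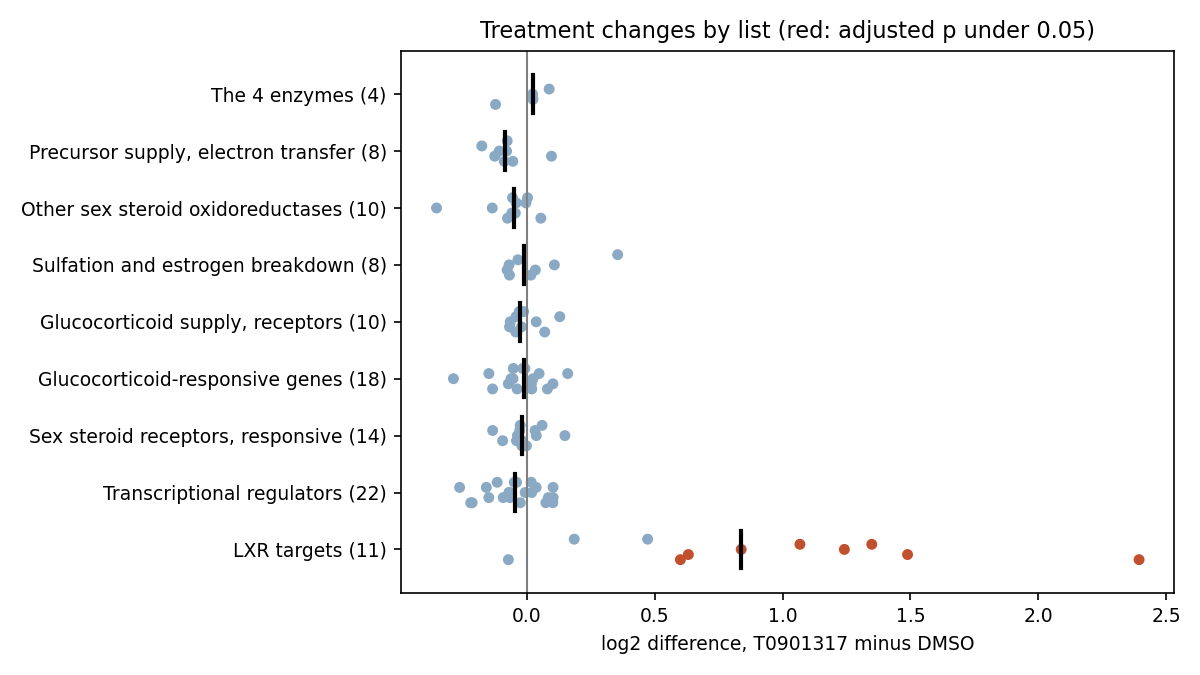
Differences on the log2 scale between T0901317 and DMSO (horizontal axis, T0901317 minus DMSO) for each gene list (vertical axis, with how many genes were measured); each point is 1 gene, coloured red where limma's adjusted p was under 0.05, and black bars are medians. Red points occur in the LXR target list alone (8 of 11); the steroid lists have medians from -0.08 to 0.02.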

How the data were processed

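Total RNA of 6 cultures was labelled with biotin and hybridised to 1-colour arrays. The deposited values are log2 levels made by the authors with RMA, per the submitters' processing notes (no version stated). Gene symbols came from the platform annotation and were set against the RefSeq gene table by gene number. Of 52865 probe sets, 99 controls were left out. A gene outside the 4 was represented by its probe set of highest mean. T0901317 minus DMSO was fitted in limma 3.58.1 (R 4.3.3) on all 52766 probe sets, with the replicate as a block, eBayes with a trend, two-sided p-values and Benjamini-Hochberg adjustment over all of them; the threshold was 0.05. With 3 pairs, exact sign flipping gives no p below 0.25.

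The pairing comes from the design text. Deviations from group means correlated at 0.658, 0.813 and 0.830 between arrays of the same number; no array correlated better with another number. P-values for treatment set the mean difference against the spread of the pair differences in these cultures, drawn towards a trend over all probe sets. Differences between replicates are taken out by the block. On data simulated for this comparison with 52766 probe sets, the fit recovered 8 of 67 changes of 0.5, 62 of 67 of 1 and 66 of 66 of 2 (log2), with 7 false calls of 143, and 95.1% of 95% intervals held the true value. The simulated noise was drawn from limma's own fitted spread, independently for each array, with no RNA quality differences. It therefore checks the code and cannot show how well p-values and intervals hold on the real arrays.

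Named genes were the 4 enzymes, a fixed set around steroid synthesis, and from each list the members past the threshold (up to 6, by size of change) or, with none, the 2 of largest change, plus the 3 most similar profiles per enzyme. Members and lists were chosen with earlier results of these data known. Alternatives were no block, each replicate left out, no trend, quantile and cyclic loess scaling, a dim filter, RNA quality as a covariate and the mean of a gene's probe sets. The number of arrays limits precision.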

Additional observations from a re-analysis of the deposited data

How the results depend on the processing

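None of the 4 enzymes passed under any of the 10 alternatives that applied to them (9 for those with 1 probe set). HSD11B1 stayed above 0 (0.04 to 0.13) and CYP17A1 below 0 (-0.21 to -0.0055, both ends from leaving out a replicate). CYP19A1 ran from -0.10 to 0.17 without 1 replicate, and had -0.0064 with quantile scaling and -0.011 with cyclic loess. HSD17B1 ran from -0.079 to 0.16 without 1 replicate and had -0.030 with RNA quality as a covariate. The cause of these turns was not tested.

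The count of probe sets past the threshold, 45 (32 higher, 13 lower), was 0 without the replicate block (0 higher, 0 lower). It was 35 to 328 with 1 replicate left out (30 to 209 higher, 5 to 119 lower), 11 without a trend (10 higher, 1 lower), 27 with quantile scaling (5 lower), 27 with cyclic loess (3 lower) and 246 with RNA quality as a covariate (140 higher, 106 lower). LXR targets past the threshold were 0 of 11 without the block, 3 without a trend and 6 to 8 without 1 replicate. The lists of other oxidoreductases, of estrogen breakdown and of glucocorticoid-responsive genes had 0 to 1 called without 1 replicate; the first 2 had 1 each with RNA quality as a covariate.

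Among genes not past the threshold, signs turned when 1 replicate was left out for NR3C1 (-0.17 to 0.030), ESR1 (-0.14 to 0.064), ESR2 (-0.10 to 0.059), FKBP5 (-0.036 to 0.083), NR5A2 (-0.15 to 0.34), STAR (-0.15 to 0.0075), UGT1A1 (-0.051 to 0.29) and CYP11B1 (-0.014 to 0.21). RNA quality as a covariate gave ESR2 0.022, FKBP5 -0.0081 and NR5A2 -0.10. The mean of a gene's probe sets gave NR3C1 0.037, ESR2 0.023 and NR5A2 -0.016. The replicate term of HSD11B1 passed in all 7 refits, which were added after the values were seen. Replicate means lay 0.55 to 1.21 apart, and for the refit with the covariate these means were not adjusted for RNA quality. Levels near the dim reference limit what CYP17A1 and CYP19A1 can show.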
